A study of Mus musculus with 5 samples.

Results

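The respiratory chain of mitochondria is built from proteins of 2 genomes, and the transcripts of both were measured here in single cells of mouse liver and aorta. The genes were chosen by symbol alone: every gene that begins with mt-, and the nuclear genes that begin with Nduf followed by a, b, c, s or v and a digit, with Cox4 to Cox8, with Uqcr or with Atp5. The rule found 93 genes of 25872 named in any of the 3 count tables, 13 encoded by mitochondrial DNA (the mitochondrial set) and 80 by nuclear chromosomes (the nuclear set). The mitochondrial set holds 7 subunits of complex I, 1 of complex III, 3 of complex IV and 2 of complex V. The nuclear set holds 38, 8, 17 and 17 genes named for the same complexes. Here and in all counts and sums by complex, nuclear genes are assigned by the start of their names. Ndufa4, known as a complex IV subunit, and its relative Ndufa4l2 are thus counted with complex I. So is Ndufb1-ps, which is annotated as a long non-coding RNA. The liver table of the ApoE background names 78 of the nuclear genes, that of the aorta all 80, and that of the liver without the ApoE background 78.

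The study prepared droplet single-cell libraries from livers and aortas of mice labelled as double knockouts for the liver epsins, endocytic adaptor proteins encoded by Epn1 and Epn2, and of control mice. One library was deposited for each of 5 groups: liver DKO (double knockout) with ApoE in its label, aorta DKO with ApoE, liver WT (wild type) with ApoE, aorta WT with ApoE, and liver WT without ApoE in its label. The labels do not spell out the ApoE allele, the driver of the deletion, the age, or how the 3 mice named in the protocol relate to the libraries, and the aorta samples carry the same liver cell isolation protocol. Epn1 stood at 67.8 CPM (UMIs, or counted molecules, per 1000000 in the cells summed) in liver DKO, 57.4 CPM in liver WT and 47.8 CPM in the liver WT library without ApoE. In the aorta it stood at 33.1 CPM in DKO and 30.1 CPM in WT. Epn2 was at 10.3 CPM (113 UMIs) in liver DKO and at 76 UMIs in liver WT, and at 103 CPM in aorta DKO and 73.6 CPM in aorta WT, so the 3′ tags of neither gene were lower in either library labelled DKO, and such tags need not lie in a deleted part. DKO therefore means a library labelled DKO throughout. With 1 library a group no difference below has a replicate check, no p-value was computed, and every interval is an exact 95% interval that covers counting error only.

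Electrons from NADH enter the chain at complex I and pass through complexes III and IV to oxygen, while protons are moved across the inner membrane, and complex V uses that gradient to make ATP. Mitochondrial DNA encodes core subunits of these 4 complexes, and they are transcribed inside the organelle as long precursors that are cleaved between genes. The other subunits are made in the cytosol from nuclear transcripts and imported, so assembly draws on both genomes. Hepatocytes are rich in mitochondria, which also host fatty acid oxidation and urea synthesis, whereas arterial smooth muscle is known for a larger reliance on glycolysis.

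The mitochondrial genes lie so close on the circular genome that some share bases, which bears on how tags can be assigned to them. In the GRCm38 annotation 3 pairs that share several bases are shown on the plus strand, with the shared bases in capitals and flanking bases in lower case. A further pair, mt-Atp6 and mt-Co3, meets at base 8607, which both hold, and is not shown. The mt-Atp8 and mt-Atp6 pair, carried on a single messenger, shares 43 bases in the window chrM:7915-7981, the mt-Nd4l and mt-Nd4 pair 7 bases in chrM:10155-10185, and mt-Nd5 shares 14 bases with mt-Nd6, which is read from the other strand, in chrM:13540-13577.
mt-Atp8/mt-Atp6: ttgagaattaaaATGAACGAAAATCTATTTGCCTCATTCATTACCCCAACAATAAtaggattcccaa
mt-Nd4l/mt-Nd4: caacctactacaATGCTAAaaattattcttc
mt-Nd5/mt-Nd6: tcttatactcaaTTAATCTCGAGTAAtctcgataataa
The sources used here do not state the strand setting of the counting, so the split of tags within each pair is uncertain, and mt-Nd6 is the only member of the 13 on the minus strand.

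Nuclear members are dispersed over 19 chromosomes, with 3 genes on X, and many promoters of this class carry sites for the factors NRF1, GABP (an ETS factor) and YY1. The 250 bases before the start of 64 members could be searched on both strands for GCGC followed by any base and TGCGC (NRF1), CCGGAAG (ETS) and AAGATGG (YY1), in RefSeq promoters of the build GRCm38.p6. The NRF1 letters occurred before 11 of the 64 members (17.2%), against 4.23% of 27025 genes. The ETS letters also occurred before 11 members (17.2%), against 7.83% of genes, and the YY1 letters before 1 member (1.56%), against 5.18% of genes. The windows below belong to members named later, with the matched letters in capitals: Atp5g2 at chr15:102671055-102671114, Ndufa8 at chr2:36049339-36049398 and Atp5h at chr11:115420026-115420085 hold the NRF1 letters, and Atp5e at chr2:174464171-174464230 and Uqcrh at chr4:116075071-116075130 the ETS letters. All 5 are written along the minus strand, on which these genes lie, and the capitals CTTCCGG are the ETS letters on the opposite strand, as GCGCAGGCGC is an NRF1 match on the opposite strand. For Ndufa4 at chr6:11907451-11907510, also on the minus strand and among the lowest members in liver DKO, the 60 bases before the start are shown, in which none of the 3 motifs was found.
Atp5g2: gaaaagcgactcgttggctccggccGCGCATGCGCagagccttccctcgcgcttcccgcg
Ndufa8: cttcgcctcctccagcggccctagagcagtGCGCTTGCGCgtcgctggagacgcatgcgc
Atp5h: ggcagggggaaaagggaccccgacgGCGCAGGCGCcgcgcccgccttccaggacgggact
Atp5e: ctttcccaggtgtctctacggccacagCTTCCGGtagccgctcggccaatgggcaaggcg
Uqcrh: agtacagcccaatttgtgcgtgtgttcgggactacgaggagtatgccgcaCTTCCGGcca
Ndufa4: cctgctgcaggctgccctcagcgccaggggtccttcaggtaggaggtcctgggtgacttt
In the comparison of liver DKO with liver WT described below, the median CPM ratio was 0.824 for the 11 members with the NRF1 letters and 0.799 for the 50 without them, and 0.780 and 0.810 for members with and without the ETS letters, so carriers of either motif and the other members lay close together.

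Liver DKO held 4331 cells and 10999072 UMIs (median 1636 a cell), and liver WT 4331 cells and 9497896 UMIs (median 1552). Aorta DKO held 2800 cells and 6228458 UMIs (median 1774), and aorta WT 2800 cells and 6383082 UMIs (median 1710). The liver WT library without ApoE held 616 cells and 1883798 UMIs (median 2772). The highest mitochondrial share of any cell was 19.99% in liver and 4.998% in aorta, so levels of the mitochondrial set describe the cells kept. Hepatocytes (clusters 0 to 8, 13 and 16 of the authors' metadata) carried all 10 hepatocyte markers in each cluster, with summed levels of 57952 to 101348 CPM in DKO and 61480 to 104584 CPM in WT. In WT the sums of the Kupffer and endothelial clusters, given below, also fell within this range, while in DKO they lay under it. These sums alone therefore do not set hepatocytes apart. The 3 smooth muscle clusters of the aorta, VS1, VS2 and VS3, carried all 5 contractile markers, at 22160 to 31571 CPM in DKO and 21895 to 28582 CPM in WT. The clusters that the authors call adipocytes are given by their codes, AP1 and AP2. At most 2 of the 3 markers listed here for brown fat, Ucp1, Cidea and Plin1, had a UMI there (0 to 5.43 CPM summed). Fibroblast markers summed to 7342 to 17482 CPM in AP1 and AP2. No marker particular to white fat was examined, so the authors' name was not fully checked. The clusters called hematopoietic stem cells are given as HS1 to HS3, which carried fibroblast and smooth muscle markers.

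Over whole libraries the mitochondrial set took 9.77% of UMIs in liver DKO, 7.52% in liver WT and 4.45% in the liver WT library without ApoE, and 2.74% in aorta DKO and 2.31% in aorta WT. The nuclear set took 2.09% of UMIs in liver DKO, 2.68% in liver WT and 3.28% in liver WT without ApoE, and 0.879% in aorta DKO and 0.9501% in aorta WT. Thus the liver libraries stood in opposite orders for the 2 sets. Counted as mitochondrial UMIs per nuclear UMI, the values were 4.68 in liver DKO, 2.80 in liver WT and 1.36 in liver WT without ApoE, and 3.12 and 2.43 in aorta DKO and aorta WT. Both sets took smaller shares of UMIs in the aorta libraries than in any liver library, and no aorta cell above 5% mitochondrial UMIs is in the table.

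Hepatocytes were spread far more widely in the mitochondrial set than in the nuclear one. Across the hepatocyte clusters with at least 50 cells, the mitochondrial share spanned 0.485% (cluster 2) to 15.5% (cluster 8) in DKO, a range of 32.0-fold, and 0.597% (cluster 2) to 14.8% (cluster 7) in WT, a range of 24.8-fold. The nuclear share spanned 1.63% to 2.90% in DKO and 1.86% to 3.99% in WT, ranges of 1.78-fold and 2.15-fold. Many clusters high in one set were low in the other: cluster 2 had the lowest mitochondrial and highest nuclear share in both libraries, and cluster 8 the lowest nuclear share in both. Cluster 13 of DKO was an exception, with 14.4% mitochondrial and 2.73% nuclear UMIs. As a description over clusters of 1 library, which share its depth and free RNA and one total, the Pearson correlation of the 2 shares was -0.74 over 10 clusters in DKO and -0.90 over 9 in WT. Over all liver clusters of that size, other cell types included, the correlation was 0.33 over 16 in DKO and -0.70 over 12 in WT. In the aorta, also over clusters of all cell types, it was 0.72 over 15 clusters in DKO and 0.67 over 16 in WT. The rank (Spearman) correlation was lower in the aorta, at 0.50 in both libraries. It was -0.75 in DKO and -0.95 in WT over hepatocyte clusters, and 0.29 in DKO and -0.57 in WT over all liver clusters. The erythroid cluster ET2 was lowest in both sets in both aorta libraries.

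**Figure D1:**
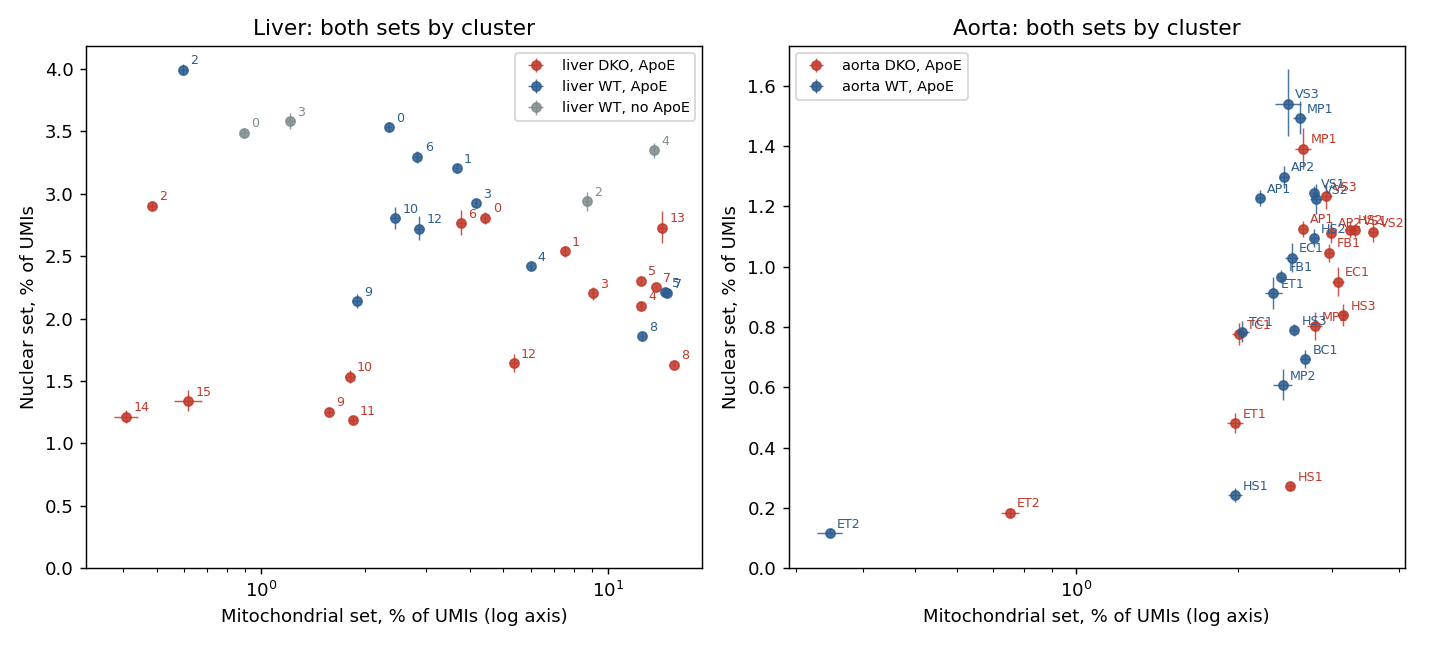
Share of UMIs in the mitochondrial set (x axis, %, log scale) and in the nuclear set (y axis, %) for each cluster with at least 50 cells, in liver (left) and aorta (right), colored by library; bars are 95% counting intervals and labels are the authors' cluster codes. Liver clusters of the DKO library lie lower on the nuclear axis than their WT counterparts except clusters 5 and 7, and the erythroid cluster ET2 of the aorta is lowest in both sets.

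Cells of the hepatocyte clusters showed the same spread one by one. In DKO 23.1% of hepatocytes had under 1% mitochondrial UMIs (753 of 3253 cells, interval 21.7 to 24.6%), and in WT 11.9% had (479 of 4021 cells, 10.93 to 12.95%). Over 10% mitochondrial UMIs were found in 40.5% of DKO hepatocytes (38.8 to 42.2%) and in 19.1% of WT hepatocytes (17.9 to 20.3%). Both ends of the distribution thus held a larger share of cells in DKO. The liver WT library without ApoE, where the authors call every cell a hepatocyte, had 58.9% of its 616 cells under 1% and 24.5% over 10%.

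The first comparison, liver DKO against liver WT, asks how hepatocytes of the library labelled as a liver epsin knockout differ from those of the WT library with the same ApoE label. In the hepatocyte class the mitochondrial set was higher in DKO, at 11.3% of UMIs, against 7.97% in WT, a ratio of 1.42 (1.417 to 1.425). The nuclear set was lower in DKO, at 2.24% of UMIs, against 2.72% in WT, a ratio of 0.825 (0.820 to 0.830). The libraries filled the class differently: clusters 5, 7 and 8 held 1195 of the 3253 cells in DKO and 790 of the 4021 cells in WT, and cluster 3 held 146 cells in DKO and 663 in WT. Neither difference was seen in every cluster. In clusters 5, 7 and 8 pooled, whose cells are the deepest, the mitochondrial share was 13.96% in DKO and 13.97% in WT (ratio 0.999), and the nuclear share 2.07% in DKO and 2.08% in WT (0.995), values that pool clusters of opposite direction. In the other hepatocyte clusters the mitochondrial share was 6.43% in DKO and 3.54% in WT (1.82), and the nuclear share 2.55% in DKO and 3.18% in WT (0.802).

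Cluster by cluster, the mitochondrial share was higher in DKO in 6 of 9 hepatocyte clusters and the nuclear share lower in 7 of 9. Cluster 3 had the largest mitochondrial ratio, with 9.06% in DKO and 4.16% in WT (2.18, 2.14 to 2.21). Cluster 4 (12.5% in DKO, 5.996% in WT), cluster 1 (7.53% in DKO, 3.67% in WT) and cluster 0 (4.44% in DKO, 2.34% in WT) followed at 2.09, 2.05 and 1.90. The direction was the opposite in cluster 2, at 0.485% in DKO and 0.597% in WT (0.813), in cluster 5, at 12.5% in DKO and 14.6% in WT (0.855), and in cluster 7, at 13.8% in DKO and 14.8% in WT (0.9298). Cluster 8 was higher, at 15.5% in DKO and 12.6% in WT (1.23), and lower in the nuclear set, at 1.63% in DKO and 1.86% in WT (0.878). Among the nuclear ratios cluster 2 was the lowest of the class, with 2.90% in DKO and 3.99% in WT (0.727), and clusters 5 (1.04) and 7 (1.02) were the 2 above 1.

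The depth of the cell moved with both differences. The mitochondrial ratio was 1.20 among hepatocytes of under 1000 UMIs, 1.49 from 1000 to under 2000 UMIs, 1.42 from 2000 to under 4000 UMIs and 0.982 at 4000 or more UMIs. The nuclear ratio was 0.723, 0.811, 0.885 and 0.973 over the same ranges of depth, closer to 1 with each step. The classes differed in make-up, with 949 DKO and 301 WT cells in the shallowest range and 973 DKO and 534 WT cells in the deepest. The share of UMIs on Gm42418, a transcript over ribosomal RNA sequence, was 3.95% in DKO hepatocytes and 2.34% in WT hepatocytes. In cluster 2, which had the lowest nuclear ratio of the class, it was 16.4% in DKO and 4.04% in WT, while in cluster 1 it was 3.61% and 3.70%. Malat1, a nuclear RNA, took 0.0456% of UMIs of cluster 2 in DKO and 0.0437% in WT, against 0.567% and 0.462% in the class. The part of depth or of these transcripts in the differences was not tested.

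**Figure D2:**
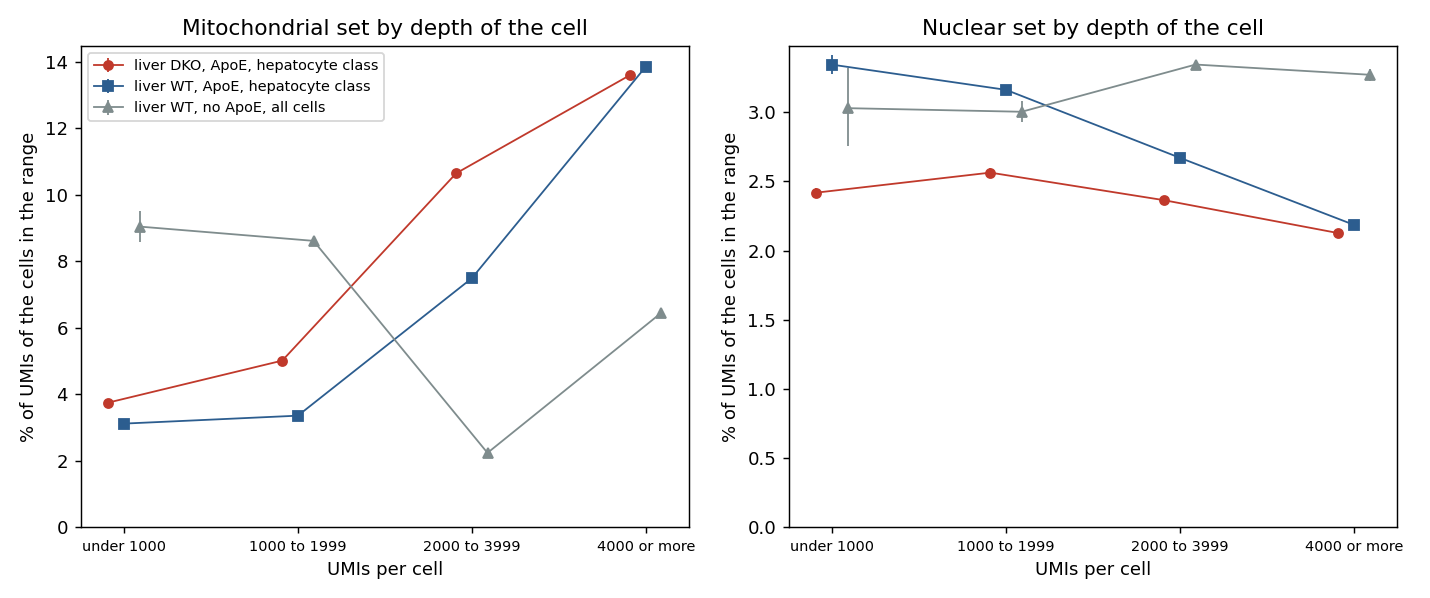
Share of UMIs in the mitochondrial set (left, %) and the nuclear set (right, %) in 4 ranges of UMIs per cell, for hepatocytes of the liver DKO and liver WT libraries and for all cells of the liver WT library without ApoE; bars are 95% counting intervals. DKO and WT hepatocytes lie closest together at 4000 or more UMIs, and the library without ApoE has its lowest mitochondrial share, 2.24%, from 2000 to under 4000 UMIs.

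Among the mitochondrial genes of complex I, mt-Nd2, a core subunit of the proton-pumping arm, stood at 7442 CPM in DKO hepatocytes and 2933 CPM in WT hepatocytes, a ratio of 2.54. mt-Nd1, which lines the quinone site, stood at 7361 CPM in DKO and 4298 CPM in WT (1.71, 1.69 to 1.73). mt-Nd4, an antiporter-like subunit, stood at 11611 CPM in DKO and 6841 CPM in WT (1.70). All 3 were higher in DKO. The related mt-Nd5 was close in both, at 2376 CPM in DKO and 2263 CPM in WT (1.05), as was mt-Nd4l, at 1726 CPM in DKO and 1605 CPM in WT (1.08). mt-Nd3 stood at 1852 CPM in DKO and 1103 CPM in WT (1.68). mt-Nd6, encoded on the opposite strand, was the 1 gene of the 13 that was lower, at 223 CPM in DKO and 277 CPM in WT (0.804, 0.758 to 0.853).

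In complex III, mt-Cytb, the cytochrome b subunit that holds both quinone sites, stood at 7839 CPM in DKO and 3788 CPM in WT (2.07). The 3 mitochondrial genes of complex IV did not move as one. mt-Co2, which takes electrons from cytochrome c, stood at 12131 CPM in DKO and 6123 CPM in WT (1.98, 1.961 to 2.002). mt-Co1, which holds the oxygen-reducing centre, stood at 23227 CPM in DKO and 20104 CPM in WT (1.16), and mt-Co3 at 18614 CPM in DKO and 18310 CPM in WT (1.02). Of the complex V genes, mt-Atp6, part of the proton channel, stood at 18521 CPM in DKO and 11844 CPM in WT (1.56), and mt-Atp8 at 286 CPM in DKO and 171 CPM in WT (1.67). Of the 13 genes, 8 were higher by 1.5-fold or more, against 2.24% of the 8294 genes with at least 100 summed UMIs. Summed by complex, the mitochondrial ratio was 1.69 for complex I, 2.07 for complex III, 1.21 for complex IV and 1.57 for complex V.

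The make-up of the mitochondrial set, each gene as a share of the set's own UMIs, does not depend on how large the set is. In the liver libraries mt-Nd2 made up 6.52% of the set in DKO and 3.66% in WT, mt-Cytb 6.95% in DKO and 4.76% in WT, and mt-Co2 10.8% in DKO and 7.73% in WT. mt-Co1 made up 20.5% in DKO and 25.2% in WT, mt-Co3 16.6% in DKO and 23.1% in WT, and mt-Nd5 2.10% in DKO and 2.84% in WT. Each of the first 3 shares was higher, and each of the second 3 lower, in DKO in each of the 12 clusters compared (50 or more cells per library), T cells, Kupffer cells and endothelial cells included. The ratio of shares over these clusters ran over 1.43 to 2.03 for mt-Nd2, 1.36 to 1.74 for mt-Cytb and 1.268 to 1.749 for mt-Co2, and over 0.761 to 0.882 for mt-Co1 and 0.696 to 0.839 for mt-Co3. The 12 clusters come from the same 2 libraries and are not replicates. In clusters 5, 7 and 8 together, where the pooled share of the set was nearly equal, mt-Nd2 stood at 9116 CPM in DKO and 4824 CPM in WT (1.89), and mt-Co3 at 22832 CPM in DKO and 32167 CPM in WT (0.710).

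**Figure D3:**
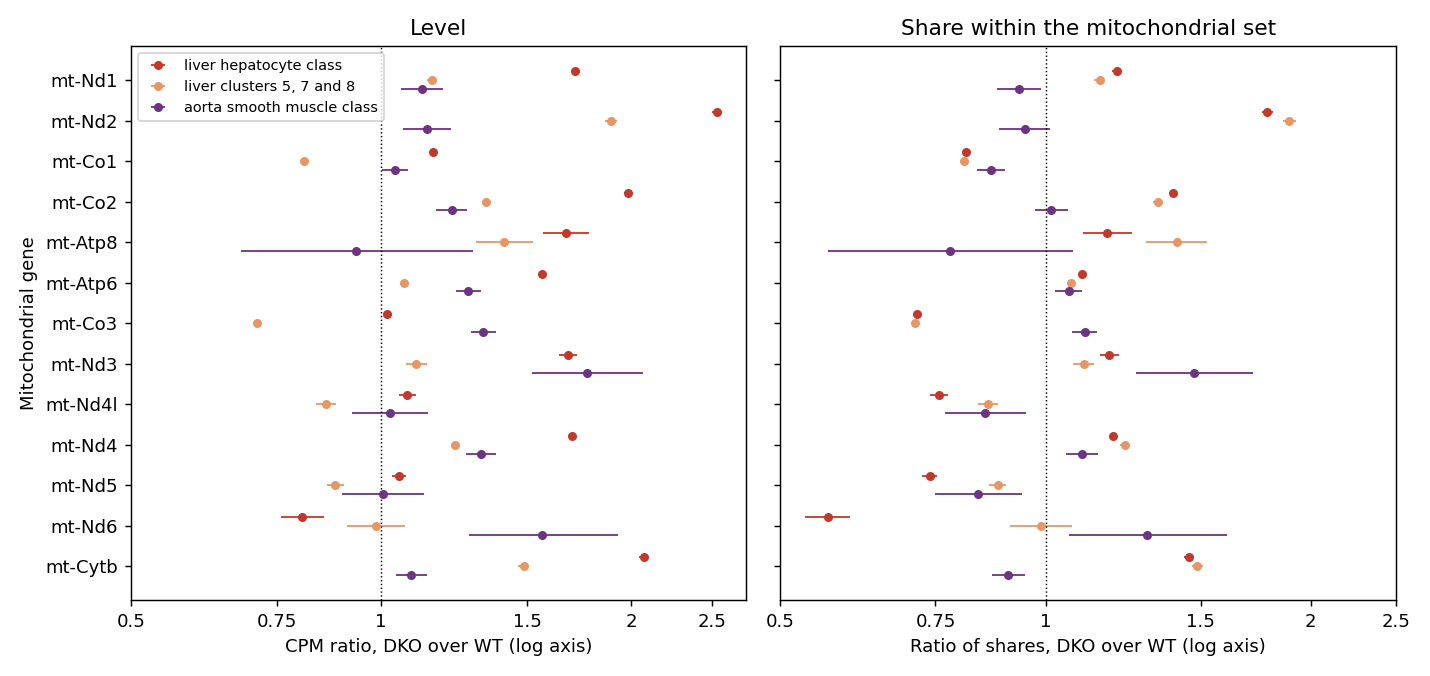
Ratio of DKO over WT for each mitochondrial gene in the order of the genome, as CPM (left) and as a share of the mitochondrial set (right), on log axes with 95% counting intervals, in liver hepatocytes, liver clusters 5, 7 and 8 and aorta smooth muscle. In both liver groups mt-Nd2 lies at the top of the shares, while in smooth muscle it lies just under 1 with an interval that reaches it.

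The make-up was not the same in the other libraries. mt-Nd2 held 3.69% of the set in the liver WT library without ApoE, 4.17% in aorta DKO and 4.42% in aorta WT, near the 3.66% of liver WT. mt-Co3 held 24.2% in liver WT without ApoE, 18.6% in aorta DKO and 17.3% in aorta WT. mt-Cytb was largest in the aorta, at 10.5% in DKO and 11.5% in WT. In the aorta the share of mt-Cytb was lower in DKO in all 15 clusters compared, by ratios of 0.812 to 0.998, and that of mt-Nd5 in all 13 with enough UMIs, while that of mt-Nd3 was higher in all 9. Over the 13 genes the Pearson correlation of the log2 ratio with the percentage of adenine in the gene, a property bearing on internal priming of oligo-dT, was 0.69 for liver DKO over WT, -0.26 for liver WT over liver WT without ApoE and -0.39 for aorta DKO over WT. The rank (Spearman) correlation for liver DKO over WT was lower, at 0.49. With the longest run of adenines the liver DKO over WT values were 0.37 (Pearson) and 0.33 (Spearman). mt-Nd6, the gene lower in DKO hepatocytes, also has the lowest adenine share, 22.2%. These describe 13 genes that share a polycistronic origin, and the part of base composition was not tested.

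**Figure D4:**
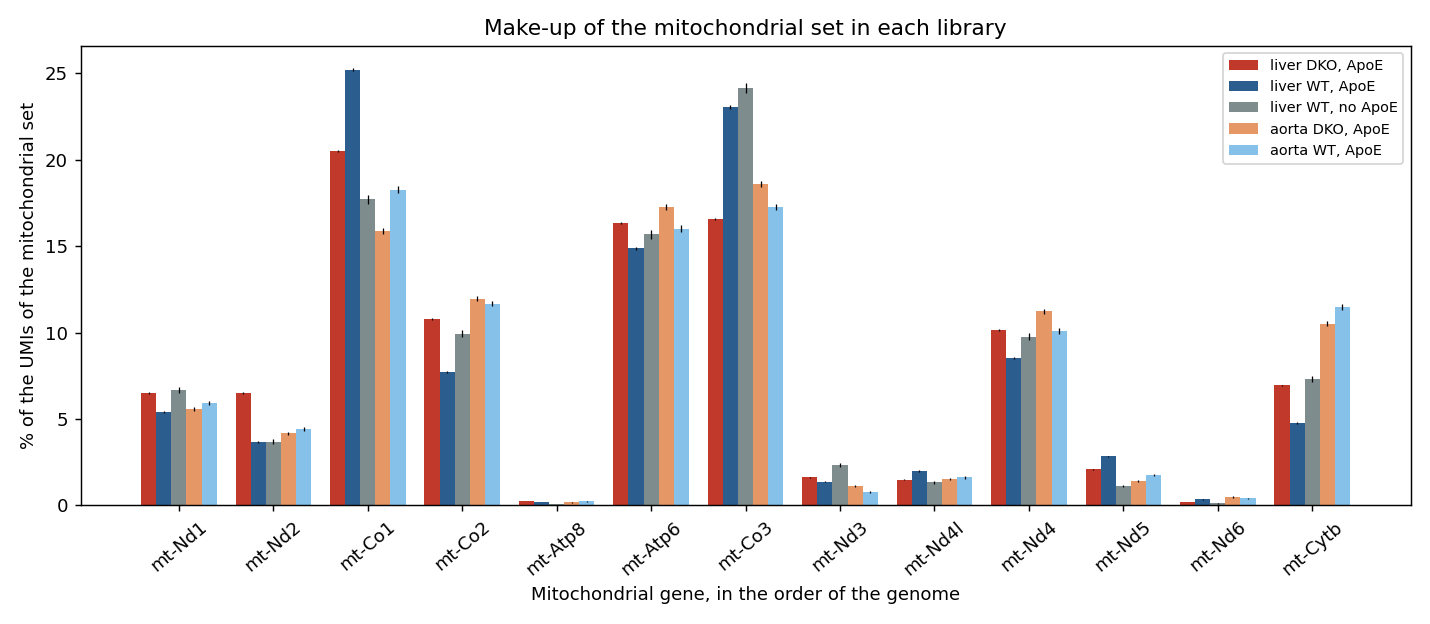
Share of each mitochondrial gene in the UMIs of the mitochondrial set (%) in each of the 5 libraries, in the order of the genome; bars are 95% counting intervals. The liver DKO library has the tallest mt-Nd2 bar, at 6.52%, and the liver WT library the tallest mt-Co1 bar, at 25.2%.

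Of the nuclear members, 74 had at least 100 summed UMIs in hepatocytes, and 62 of these were lower and 12 higher in DKO. Of all 8294 genes, 4145 were lower. The median ratio of the members was 0.825, beside 1.0001 over all genes. The interval lay below 1 for 56, against 18.6% of all genes, above 1 for 4, against 15.8% of all genes, and included 1 for 14. By 1.5-fold or more, 7 of the 74 were lower (9.46%), against 2.71% of all genes, and 0 were higher. Here and below, all genes were not matched to the members by UMIs, and intervals narrow and ratios scatter less as UMIs grow. Ndufa4l2, Cox4i2 and Cox7a1 had fewer UMIs than the minimum, and the other 3 of the 80 had no UMI in these cells or no row in the table.

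The nuclear members named for complex I, Ndufa4 among them, summed to 7286 CPM in DKO and 9105 CPM in WT (0.8002, 0.792 to 0.808), and 33 of 37 were lower. Ndufa9, a subunit at the joint of the 2 arms, stood at 44.2 CPM in DKO and 75.3 CPM in WT (0.587, 0.518 to 0.666). Ndufs7, which carries the last iron-sulfur cluster before quinone, stood at 108 CPM in DKO and 174 CPM in WT (0.621). Ndufa12, an accessory subunit of the peripheral arm, stood at 119 CPM in DKO and 189 CPM in WT (0.627). These 3 were the lowest of the complex. Ndufa4, counted here with complex I by its name but known as a complex IV subunit, had the most UMIs of the nuclear set in liver and stood at 1023 CPM in DKO and 1536 CPM in WT (0.666).

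Complex III differed the least, with 3223 CPM in DKO and 3619 CPM in WT summed (0.890, 0.877 to 0.905) and 4 of 8 members lower. Uqcrq, a small subunit, stood at 1107 CPM in DKO and 1053 CPM in WT (1.05, 1.02 to 1.08), and the core protein Uqcrc1 at 111 CPM in DKO and 110.4 CPM in WT (1.01, an interval that includes 1). Uqcrh, the hinge protein, was lower, at 617 CPM in DKO and 784 CPM in WT (0.787). In complex IV all 12 members were lower, with sums of 5081 CPM in DKO and 6521 CPM in WT (0.779, 0.770 to 0.789). Cox4i1, the ubiquitous isoform of a regulatory subunit, stood at 729.6 CPM in DKO and 1196 CPM in WT, the lowest member by the bound of its interval. Cox6c, a small subunit, stood at 655 CPM in DKO and 751 CPM in WT (0.872).

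Complex V, the ATP synthase, summed to 6833 CPM in DKO and 7921 CPM in WT (0.863, 0.853 to 0.872), with 13 of 17 members lower. It also held 3 of the 4 members whose interval lay above 1. Atp5g2, which encodes the c subunit of the rotor, stood at 325 CPM in DKO and 269.5 CPM in WT (1.21, 1.14 to 1.27). Its paralogs for the same protein stood at 624 CPM in DKO and 702 CPM in WT (Atp5g1, 0.889) and at 412.5 CPM in DKO and 553 CPM in WT (Atp5g3, 0.745), so the 3 genes differed in direction. Atp5j, coupling factor 6 of the stalk, stood at 486 CPM in DKO and 443 CPM in WT (1.10, 1.05 to 1.15). Atp5e, the epsilon subunit, stood at 566 CPM in DKO and 528.5 CPM in WT (1.07, 1.03 to 1.12).

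In the clusters of deepest cells the nuclear members lay on both sides of 1. In clusters 5, 7 and 8, 34 of 74 nuclear members were higher and 40 lower, with a median ratio of 0.994 beside 0.982 over 6882 genes. Cox4i1 was still lower, at 652 CPM in DKO and 884 CPM in WT (0.738, 0.704 to 0.773), as were Ndufa9 (0.720), Ndufa12 (0.768) and Ndufs7 (0.809). Ndufa4 stood at 936 CPM in DKO and 1045 CPM in WT (0.895). Atp5g2 was higher, at 315 CPM in DKO and 241 CPM in WT (1.31, 1.21 to 1.42), and Atp5j (1.20), Atp5e (1.19) and Uqcrq (1.11) were also above 1. In the other hepatocyte clusters 62 of 74 were lower, with a median ratio of 0.811 beside 0.972 over 6304 genes.

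**Figure D5:**
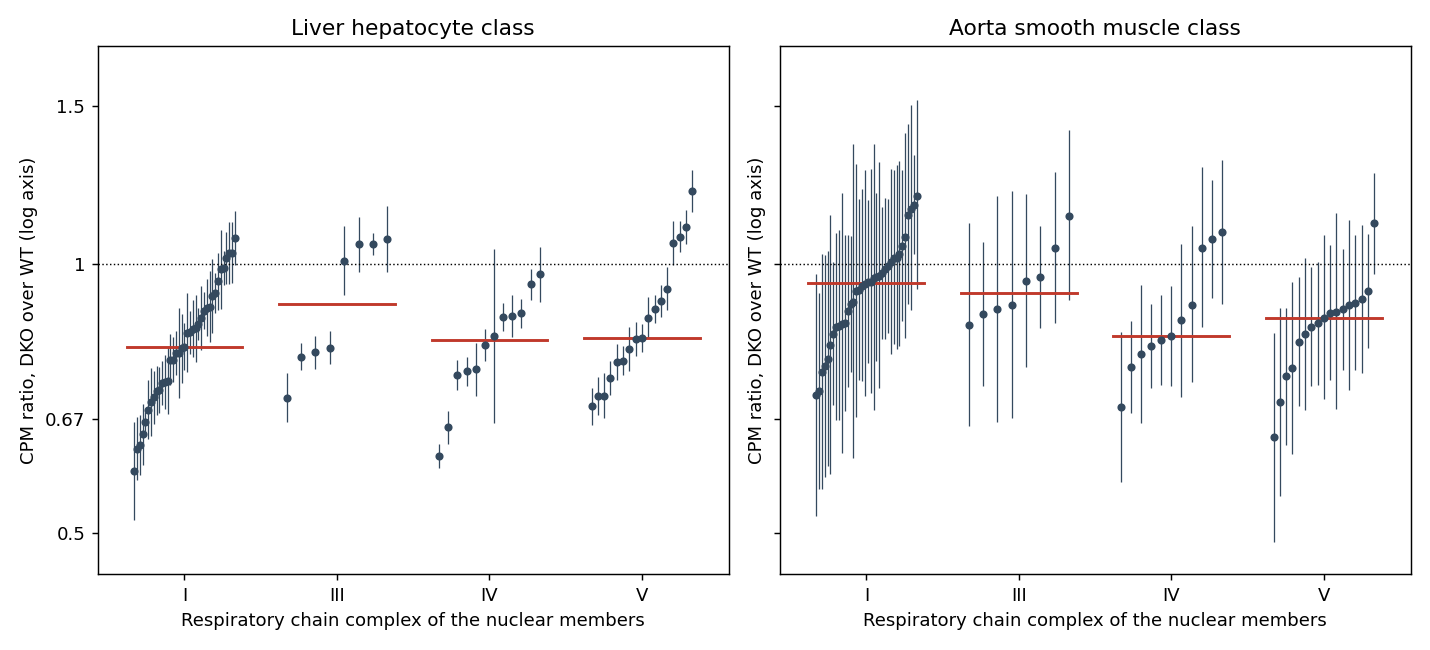
CPM ratio of DKO over WT (log axis) for each nuclear member with at least 100 summed UMIs, by complex, in liver hepatocytes (left) and aorta smooth muscle (right); bars are 95% counting intervals and red lines the median of the complex. The ratios of all 12 complex IV members lie under 1 in hepatocytes, 2 of them with intervals that cross it, and intervals in smooth muscle are wider because the class holds fewer UMIs.

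Other genes of the pathway differed from the nuclear set in size and in part in direction. Of 9 genes of complex II and the electron carriers, 5 were lower and 4 higher, with a median ratio of 0.890. Within that list the succinate dehydrogenase subunit Sdhd stood at 75.2 CPM in DKO and 51.4 CPM in WT (1.46, 1.30 to 1.65), while Etfb of the electron transfer flavoprotein stood at 437 CPM in DKO and 699 CPM in WT (0.625, 0.600 to 0.650). Assembly factors were split, with 17 of 33 lower and a median ratio of 0.979, and citric acid cycle enzymes were lower in 7 of 11, with a median ratio of 0.960. The mitochondrial ribosome was lower in 62 of 78 genes, with a median ratio of 0.870, and the cytosolic ribosome higher in 55 of 79, with a median ratio of 1.07.

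Genes that act on mitochondrial DNA and its RNA were lower in 11 of 15 cases, with a median ratio of 0.941. Tfam, which packages and transcribes that DNA, stood at 47.7 CPM in DKO and 44.0 CPM in WT (1.08, 0.943 to 1.25). Twnk, its helicase, stood at 15.3 CPM in DKO and 9.67 CPM in WT (1.58, 1.20 to 2.10), and Lrpprc, which stabilizes mitochondrial messengers, at 107 CPM in DKO and 104 CPM in WT (1.02). Lower members included Slirp, the partner of Lrpprc, at 52.4 CPM in DKO and 68.7 CPM in WT (0.762, 0.675 to 0.861), and Fastkd2, an RNA-binding protein of mitochondria, at 9.46 CPM in DKO and 14.7 CPM in WT (0.644, 0.485 to 0.852). Tefm, the mitochondrial transcription elongation factor, stood at 6.09 CPM in DKO and 9.56 CPM in WT (0.637, 0.446 to 0.904). Among 6 regulators of nuclear respiratory genes the interval included 1 in every case, as for Ppargc1a, the coactivator PGC-1alpha, at 88.0 CPM in DKO and 91.8 CPM in WT (0.959, 0.869 to 1.06).

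In non-hepatocyte clusters of the liver the nuclear set differed more than in hepatocytes. T cells (cluster 9) had 1.26% of UMIs in the nuclear set in DKO and 2.14% in WT (0.587, 0.567 to 0.608), and all 53 members with enough UMIs were lower while the median over 1675 genes was 1.01. Kupffer cells, the liver macrophages of cluster 10, had 1.53% in DKO and 2.81% in WT (0.547, 0.522 to 0.574), with all 27 members lower beside a median of 0.845 over 426 genes. Endothelial cells (cluster 12) had 1.64% in DKO and 2.72% in WT (0.604), with all 15 members lower beside 0.773 over 310 genes. The 10 hepatocyte markers, all detected, summed in T cells to 22852 CPM in DKO and 48257 CPM in WT, in Kupffer cells to 33715 CPM in DKO and 70958 CPM in WT, and in endothelial cells to 45405 CPM in DKO and 70921 CPM in WT. The Gm42418 share was 10.4% in DKO and 2.66% in WT in T cells, 13.5% in DKO and 3.62% in WT in Kupffer cells, and 11.7% in DKO and 4.02% in WT in endothelial cells. The part of these transcripts in the nuclear difference was not tested.

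Pooled over cells, the mitochondrial set took different directions in these clusters. It was lower in T cells, with 1.57% in DKO and 1.89% in WT (0.832), and in Kupffer cells, with 1.80% in DKO and 2.44% in WT (0.740). In Kupffer cells the median cell went the other way, with 1.37% in DKO and 1.28% in WT, and the pooled WT share lay above the upper quartile of its cells (2.19%). It was higher in endothelial cells, with 5.37% in DKO and 2.86% in WT (1.87, 1.80 to 1.96), but the median endothelial cell had 1.71% in DKO and 1.44% in WT, and the pooled DKO share lay above the upper quartile of its cells (2.59%). Clusters with fewer than 50 cells in WT have no ratio here: B cells of cluster 11 had 1.84% mitochondrial and 1.18% nuclear UMIs in DKO, neutrophils of cluster 15 had 0.617% and 1.34%, and the erythroid-led cluster 14 had 0.409% and 1.21%.

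The second comparison sets the liver WT library labelled ApoE against the liver WT library without that label. Apoe itself stood at 34.8 CPM in the library labelled ApoE and 51.0 CPM in the one without the label, so its tags do not tell the backgrounds apart, and "with ApoE" and "without it" refer to the labels. The 2 libraries come from tables processed apart. The class is clusters 0 to 8, 13 and 16 of the first library against clusters 3, 4, 8 and 12 of the second (261 of 616 cells). Clusters 0 and 2 of the second library (244 and 111 cells), which the authors also call hepatocytes, are left out of the class. The mitochondrial set took 7.97% of UMIs with ApoE and 6.79% without it (1.17, 1.16 to 1.18), and the nuclear set 2.72% with ApoE and 3.16% without it (0.860, 0.849 to 0.870). Over all cells the ratios were 1.69 and 0.819, and with every cell weighted alike the mitochondrial difference was reversed (-0.29 on the log2 scale). Clusters of the library without ApoE lay far apart, with mitochondrial shares of 0.894% in cluster 0, 1.22% in cluster 3, 2.503% in cluster 8, 8.74% in cluster 2, 9.62% in cluster 12 and 13.6% in cluster 4, so the class chosen sets the value.

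Single mitochondrial genes of low count differed most in this comparison. mt-Nd6 stood at 277 CPM with ApoE and 63.3 CPM without it (2434 and 57 UMIs, 4.38, 3.37 to 5.80), and mt-Atp8 at 171 CPM with ApoE and 56.6 CPM without it (3.03). mt-Nd5 stood at 2263 CPM with ApoE and 828 CPM without it (2.73). mt-Nd3 was lower, at 1103 CPM with ApoE and 1982 CPM without it (0.557). By 1.5-fold or more, 4 of the 13 were higher, against 14.5% of 6880 genes, and 1 was lower, against 16.8% of genes.

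Of 74 nuclear members 53 were lower with ApoE, as were 3562 of all 6880 genes. The median ratio of the members was 0.848, beside 0.982 over all genes. By 1.5-fold or more 9 were lower (12.2%), a share under the 16.8% of all genes, and 0 were higher. Among the lowest, Ndufa7, an accessory subunit of complex I, stood at 301 CPM with ApoE and 587 CPM without it (0.512, 0.466 to 0.563). Uqcrb, which binds quinone in complex III, stood at 269 CPM with ApoE and 498.5 CPM without it (0.539), and Cox8a, the ubiquitous isoform of the smallest complex IV subunit, at 659.8 CPM with ApoE and 1121 CPM without it (0.588). Ndufa6 (0.597) and Ndufa8 (0.573), both accessory subunits of complex I, completed the lowest 5.

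Cox4i1, the member lowest by the bound of its interval in liver DKO against liver WT, had the highest ratio here, at 1196 CPM with ApoE and 877 CPM without it (1.36, 1.27 to 1.47). The alpha subunit of ATP synthase, Atp5a1, stood at 761 CPM with ApoE and 563 CPM without it (1.35), and Ndufb9 (1.27), Uqcrh (1.23) and Atp5h (1.25) followed. The liver WT library with ApoE enters both liver comparisons, so values of a gene in the 2 are not independent of each other. Summed by complex, the nuclear ratio was 0.826 for complex I, 0.945 for complex III, 0.851 for complex IV and 0.872 for complex V.

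The third comparison, aorta DKO against aorta WT, concerns a tissue outside the liver of the same genotypes. In smooth muscle cells the mitochondrial set took 3.32% of UMIs in DKO and 2.77% in WT (1.20, 1.18 to 1.22), and the nuclear set 1.14% in DKO and 1.25% in WT (0.905, 0.885 to 0.926). The mitochondrial ratio was 1.19, 1.23, 1.20 and 1.16 over the same 4 ranges of depth, while the nuclear ratio was 0.924, 0.795, 0.8497 and 1.08. Among smooth muscle cells with at most 2% mitochondrial UMIs the nuclear direction was reversed (0.14 on the log2 scale). All 3 smooth muscle clusters showed both directions, with mitochondrial ratios of 1.18 to 1.28 and nuclear ratios of 0.8005 to 0.910. The Gm42418 share was 8.84% in DKO and 4.17% in WT, and its part in the differences was not tested.

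Over the 15 aorta clusters compared (50 or more cells per library), the mitochondrial share was higher in DKO in 13 and the nuclear share lower in 9. T cells (TC1) had 2.02% mitochondrial UMIs in DKO and 2.04% in WT (0.988), with an interval that includes 1. FB1, which the authors call fibroblasts, a name not checked here, had 2.97% mitochondrial UMIs in DKO and 2.41% in WT (1.23). Unlike in smooth muscle, its nuclear share was not lower, at 1.05% in DKO and 0.967% in WT (1.08, 1.04 to 1.12). Endothelial cells (EC1) had 3.08% in DKO and 2.52% in WT (1.22) for the mitochondrial and 0.9504% in DKO and 1.03% in WT (0.923) for the nuclear set. Erythroid cells lay apart from one another, with nuclear ratios of 0.528 in ET1 and 1.57 in ET2, where the 5 erythroid markers summed to 803297 CPM in DKO and 892764 CPM in WT. Of the other clusters compared, HS1 had the smallest nuclear share, 0.272% in DKO and 0.242% in WT, and the most mitochondrial UMIs per nuclear UMI, 9.21 in DKO and 8.17 in WT. Malat1 took 5.46% of UMIs of HS1 in DKO and 8.72% in WT, against 2.65% and 3.21% in smooth muscle. Cytosolic ribosome genes took 1.32% of UMIs of HS1 in DKO and 1.51% in WT, against 6.22% and 6.67% in smooth muscle. The part of RNA quality in the HS1 values was not tested.

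In smooth muscle mt-Nd3 stood highest against WT, at 387 CPM in DKO and 219 CPM in WT (1.77, 1.52 to 2.06). mt-Nd6 stood at 197 CPM in DKO and 126 CPM in WT (1.56, 1.27 to 1.93). These were the 2 of 13 past 1.5-fold, against 3.16% of 4331 genes. mt-Co3, at 6320 CPM in DKO and 4760 CPM in WT (1.33), mt-Nd4 (1.32), mt-Atp6 (1.27) and mt-Co2 (1.22) came next, and mt-Nd1 (1.12), mt-Nd2 (1.14), mt-Cytb (1.09) and mt-Co1 (1.04) were nearer to 1. For mt-Atp8 (0.933), mt-Nd4l (1.02) and mt-Nd5 (1.01) the interval included 1.

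Of 72 nuclear members in smooth muscle 56 were lower, while 2577 of all 4331 genes were also lower. The median ratio of the members was 0.900, beside 0.949 over all genes. The interval lay below 1 for 14, a share of 72 close to the 18.3% of all genes, above 1 for 1, against 8.13% of all genes, and included 1 for 57. By 1.5-fold or more 1 was lower (1.39%), against 5.98% of all genes, and 0 were higher. The 1 member was Atp5mpl, a small subunit of ATP synthase, at 69.1 CPM in DKO and 108 CPM in WT (0.640, 0.489 to 0.837). Cox5b, a zinc-binding subunit of complex IV, stood at 137 CPM in DKO and 198 CPM in WT (0.691), Cox6c at 371 CPM in DKO and 484 CPM in WT (0.767), and the ATP synthase subunits Atp5md and Atp5j2 at ratios of 0.701 and 0.748.

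Ndufa4 was the 1 nuclear member with an interval above 1, at 424 CPM in DKO and 364 CPM in WT (1.16, 1.03 to 1.32). Cox4i1, with the most UMIs of the nuclear set in the aorta, stood at 468 CPM in DKO and 578 CPM in WT (0.810, 0.727 to 0.902), and Cox8a at 412 CPM in DKO and 501 CPM in WT (0.822). Atp5l, another ATP synthase subunit, stood at 390.3 CPM in DKO and 352 CPM in WT (1.11), and Uqcrh at 351.5 CPM in DKO and 364 CPM in WT (0.965), both with intervals that include 1. The summed nuclear ratio was 0.955 for complex I, 0.960 for complex III, 0.853 for complex IV and 0.874 for complex V. The mitochondrial ratio by complex was 1.22, 1.09, 1.19 and 1.27 in the same order, without the high complex III value of the liver.

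Several nuclear members come as isoforms with a known tissue pattern. Cox4i2, the lung-enriched alternative to Cox4i1, had 123 UMIs in aorta DKO and 199 in aorta WT (19.7 and 31.2 CPM), against 2 UMIs each in liver DKO and liver WT and 0 in liver WT without ApoE, which allows a level of up to 1.59 CPM. Within the aorta it was highest in HS3, at 72.2 CPM in DKO and 78.8 CPM in WT, and next highest in FB1, at 36.9 CPM in DKO and 67.0 CPM in WT, while smooth muscle had 16.6 CPM in DKO and 18.8 CPM in WT. Endothelial cells of the aorta had 12.3 CPM in DKO and 62.3 CPM in WT, from 2 and 11 UMIs. Ndufa4l2, a hypoxia-induced relative of Ndufa4, was highest in AP1, at 111 CPM in DKO and 133 CPM in WT, and stood at 2.47 CPM in DKO and 1.88 CPM in WT in smooth muscle.

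The heart and skeletal muscle forms were scarce in every library. Cox6a2 had 7 UMIs in liver DKO, 0 in liver WT and 0 in liver WT without ApoE, and 3 in aorta DKO and 2 in aorta WT. Cox7a1 had 33, 21 and 8 UMIs in the 3 liver libraries in that order, and 4 in aorta DKO and 5 in aorta WT. Cox8b had 2 UMIs in aorta DKO and 1 in aorta WT. The testis form Cox6b2 had 164 UMIs in liver DKO, 189 in liver WT and 29 in liver WT without ApoE, and 31 in aorta DKO and 42 in aorta WT. The ubiquitous forms Cox6a1, Cox6b1, Cox7a2 and Cox8a were lower in DKO hepatocytes, at ratios of 0.762, 0.758, 0.812 and 0.880, and Cox7a2l, a supercomplex factor, stood at 170.3 CPM in DKO and 175 CPM in WT (0.973, 0.907 to 1.04).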

How the data were processed

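The deposited tables hold raw UMI counts per gene and cell, made by the authors with Cell Ranger 7.1.0 on mm10, per the submitters' processing notes. Each of the 3 tables comes with metadata, from which the library, cluster and cell type of each cell were read, and 27 metadata columns a table were not used. In the files no cell has more than 2499 detected genes. The 2 libraries of each ApoE table share 4 cell barcodes, the other library none. Doublets were not called here. UMIs of the cells of a class were summed and divided by the class total to give CPM or percent. Ratios carry exact conditional binomial intervals and shares exact Clopper-Pearson intervals, both at 95% and for counting error only, and the interval code was tested on simulated data. Intervals and floors (3 counts) treat UMIs as independent molecules. No test was run, since each group has 1 library.

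Counts of genes used at least 100 summed UMIs and a fold of 1.5, and clusters at least 50 cells a library. Genes named are all mitochondrial genes, the 5 lowest and 5 highest nuclear members of each comparison by the interval bound nearest 1 (where bounds tied at 1, as for all but Ndufa4 on the high side in aorta, no tied member is named on that ground), the 5 with most UMIs a tissue and isoforms with a known tissue pattern. Atp5g1, Atp5g3 and the genes named from other lists were picked after their values were seen. The members, gene lists and hepatocyte classes were chosen with earlier results of these data known. Of the 93 members, 92 matched the GRCm38 annotation (GENCODE M21), the same assembly as mm10. Software was Python 3.11.15 with numpy 2.4.6, scipy 1.17.1, pandas 2.3.3 and matplotlib 3.10.9.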

Additional observations from a re-analysis of the deposited data

Results flagged for a closer look

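Atp5e, the epsilon subunit of ATP synthase, had a DKO over WT ratio of 1.07 in liver hepatocytes (interval 1.03 to 1.12) and of 0.818 in aorta smooth muscle (0.693 to 0.967). Ndufa4 had a ratio of 0.666 in hepatocytes and 1.16 in smooth muscle, and mt-Nd6 a ratio of 0.804 in hepatocytes and 1.56 in smooth muscle. They stand out because the 2 tissues lie on opposite sides of 1 with intervals that exclude it, and the difference between tissues was not tested. Each rests on 1 library a group. For mt-Nd6 the ratio was 0.987 in liver clusters 5, 7 and 8, with an interval of 0.910 to 1.07, and its 14 bases shared with mt-Nd5 make the assignment of its tags uncertain.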

How the results depend on the processing

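Values here are log2 ratios of the set's share of UMIs. For liver DKO over liver WT the mitochondrial value was 0.51 and the nuclear value -0.28. With every cell weighted alike they were 0.62 and -0.34, in cells with 2000 or more UMIs 0.17 and -0.12, with all cells 0.38 and -0.36, with clusters weighted alike 0.47 and -0.23, and without the most abundant member 0.60 and -0.26. With mitochondrial genes, Gm42418 and AY036118 left out of the denominator they were 0.59 and -0.20. In clusters 5, 7 and 8 only they were -0.0014 and -0.0068, both with intervals that include 0. Among cells with at most 5% mitochondrial UMIs they were -0.40 and -0.24. That limit selects cells by the share compared, so the mitochondrial values at a limit describe the cells kept and are no check of direction.

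For liver WT with ApoE over liver WT without it the values were 0.23 and -0.22. Weighting cells alike gave -0.29, a reversal, and -0.085, cells of 2000 or more UMIs 0.78 and -0.42, the reduced denominator 0.27 and -0.18, all cells 0.76 and -0.29, and the 5% limit 1.98 and 0.051, a reversal of the nuclear value. Without the most abundant member the mitochondrial value was 0.12. For aorta DKO over aorta WT the values were 0.26 and -0.14. The mitochondrial value was 0.35 with the reduced denominator, 0.089 at a limit of 2% mitochondrial UMIs and 0.23 without the most abundant member. The nuclear value was -0.063 in cells of 2000 or more UMIs, -0.058 with the reduced denominator, -0.20 with clusters weighted alike and 0.14, reversed, at the 2% limit. Beyond that selection, the cause was not tested.

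With a minimum of 20 UMIs, 1 nuclear member was higher by 1.5-fold in liver DKO in place of 0, and with the reduced denominator 4 were lower in place of 7. In aorta a minimum of 500 UMIs or the reduced denominator left 0 lower in place of 1. An alternative chosen after seeing the data, the reduced denominator in non-hepatocyte liver clusters, moved the mitochondrial and nuclear values to -0.15 and -0.65 in T cells, to -0.28 and -0.72 in Kupffer cells and to 1.07 and -0.56 in endothelial cells, with no change of direction.

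No paired analysis was possible because each group has 1 library. The values describe 5 libraries, not genotypes. Cells above the authors' limit on mitochondrial UMIs are not in the tables, so a shift past the limit cannot be seen, and a share of UMIs cannot tell more of one set from less of the rest. Low-count members such as mt-Atp8 and mt-Nd6 rest on 51 and 57 UMIs in the class of 261 cells taken from the library without ApoE.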
